A study of Homo sapiens with 4 samples.

Results

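The 45 expressed ribosomal protein pseudogenes described here were selected on their counts: they are the genes of the table that carry the name of a ribosomal protein gene followed by P and a number, and whose counts summed over all libraries reached 200. Of 60606 genes in the table, 1350 had such a name and 45 of these reached the minimum. The libraries came from DaroR cells, a derivative of LNCaP grown in rising concentrations of darolutamide and then kept in the drug. The paper's account of the knockdown places these cells in medium with darolutamide. LNCaP is an androgen receptor-positive prostate cancer cell line, and darolutamide is an antagonist of that receptor. The cells of both groups were DaroR cells, transfected either with control siRNA (siControl, 2 libraries) or with a pool of siRNAs against the long noncoding RNA LOC730101 (siLOC730101, 2 libraries), and polyadenylated RNA was sequenced. All cells derive from 1 resistant line. The sample labels do not say whether the libraries of a group came from separate cultures, so that the p-values measure the spread between these libraries, which may be technical. The study's general statement on statistics names independent biological replicates, but a larger minimum of them than the libraries of a group analysed here.

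Ribosomal protein genes encode the proteins of the small (RPS) and large (RPL) ribosomal subunits and are among the most strongly transcribed genes of growing cells. Their mRNAs have been copied back into the genome many times by reverse transcription, which left intron-less processed pseudogenes, most of which are thought not to be translated. A processed pseudogene that is close to its parent gene shares most of its sequence with an abundant mRNA, so a short read can match both and its count depends on how the aligner placed that read.

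How close the copies are is shown by the first 90 coding bases of 3 parent genes with their copies, taken by gene name from gencode release 44 transcripts. Capitals mark bases that differ from the parent. RPL21, a large-subunit protein, is shown because its copies had both a high and a low difference between the groups. RPL21P16 (chromosome 10, 120354701 to 120355183, minus strand), RPL21P75 (chromosome 7, 20002765 to 20003247, plus strand) and RPL21P28 (chromosome 1, 212051524 to 212052006, minus strand) differed from it at 0, 0 and 1 of these bases. The positions of all genes are on GRCh38, as the count table gives them.
RPL21: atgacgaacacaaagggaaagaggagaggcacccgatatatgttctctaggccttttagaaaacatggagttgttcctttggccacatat
RPL21P16: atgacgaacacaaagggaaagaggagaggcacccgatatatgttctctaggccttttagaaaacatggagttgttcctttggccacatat
RPL21P75: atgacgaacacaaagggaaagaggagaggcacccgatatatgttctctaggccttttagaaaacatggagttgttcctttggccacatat
RPL21P28: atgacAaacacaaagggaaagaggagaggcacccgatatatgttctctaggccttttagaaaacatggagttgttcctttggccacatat
RPS2, a small-subunit protein at the mRNA entry site, is the parent of the pseudogene with most counts, RPS2P5 (chromosome 12, 118246084 to 118246962, plus strand), and of RPS2P46 (chromosome 17, 19445970 to 19446852, minus strand). Each copy differed from RPS2 at 2 of the 90 bases, and 1 of these positions differed in both copies.
RPS2: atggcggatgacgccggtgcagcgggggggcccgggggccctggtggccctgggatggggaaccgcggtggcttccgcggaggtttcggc
RPS2P5: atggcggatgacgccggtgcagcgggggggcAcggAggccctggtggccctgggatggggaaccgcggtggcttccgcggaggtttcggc
RPS2P46: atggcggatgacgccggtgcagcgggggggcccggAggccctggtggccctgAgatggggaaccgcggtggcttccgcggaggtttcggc
RPLP1, an acidic protein of the ribosomal stalk, is shown for contrast, because its copy RPLP1P6 (chromosome 5, 151765859 to 151766378, minus strand) was among the more distant ones, with 15 differences.
RPLP1: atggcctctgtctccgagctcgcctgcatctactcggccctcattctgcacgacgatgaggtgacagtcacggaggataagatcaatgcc
RPLP1P6: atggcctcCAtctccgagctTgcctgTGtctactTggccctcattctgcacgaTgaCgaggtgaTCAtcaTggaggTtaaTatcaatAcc

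The parent RPSA encodes a small-subunit protein that is also known as the laminin receptor. RPSAP58 (chromosome 19, 23762944 to 23871162, plus strand) was the only pseudogene called in the comparison, and gencode release 44 lists it as the protein-coding gene RPSA2. It is printed with RPSAP15 (chromosome X, 87703343 to 87704203, minus strand) and RPSAP9 (chromosome 9, 76398699 to 76399586, plus strand) over coding bases 103 to 192 of RPSA, the 90-base stretch that held most differences. RPSAP58 differed from RPSA at 2 of these bases, RPSAP15 at 3 and RPSAP9 at 5.
RPSA: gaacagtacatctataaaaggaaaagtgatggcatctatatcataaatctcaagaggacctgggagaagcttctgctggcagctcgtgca
RPSAP58: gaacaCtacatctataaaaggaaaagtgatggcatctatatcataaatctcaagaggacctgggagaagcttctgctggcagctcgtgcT
RPSAP15: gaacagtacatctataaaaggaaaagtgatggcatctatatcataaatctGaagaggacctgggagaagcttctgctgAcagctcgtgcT
RPSAP9: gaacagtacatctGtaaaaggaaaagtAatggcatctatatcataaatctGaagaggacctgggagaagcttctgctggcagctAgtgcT

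The library totals were 53368158 and 46271037 counts for siControl and 40885634 and 39213498 counts for siLOC730101. LOC730101 itself, listed in the table as ENSG00000216775, was counted 2560 and 2370 times under siControl and 633 and 680 times under siLOC730101. On the log2 scale this was -1.56 ± 0.12 (± gives the standard error of every log2 fold change), and edgeR's quasi-likelihood test with Benjamini-Hochberg adjustment gave an adjusted p of 4.34e-06. All 8 luminal prostate markers examined were above 1 CPM (counts scaled to a common library total) in every library, while the 4 leukocyte markers summed to at most 0.153 CPM and the 4 basal markers to at most 0.612 CPM. The 5 fibroblast markers summed to 14.0 to 18.3 CPM in siControl and 14.6 to 14.9 CPM in siLOC730101, with 2 of them above 1 CPM in every library, and the 3 endothelial markers to 6.73 to 9.55 and 5.87 to 6.78 CPM, with 1 above 1 CPM. Their part in the results was not tested. Among low counts, 66.0% to 70.1% were even numbers, which would arise if a fragment added its mates one by one. The fragments behind a value would then be fewer than its counts.

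Counts on the 45 pseudogenes made up 0.0665% and 0.0746% of all counts in the siControl libraries and 0.0712% and 0.0762% in the siLOC730101 libraries. The ranges of the groups overlapped, and the means were 0.0706% ± 0.0058 and 0.0737% ± 0.0036 (SD, n = 2; exact two-sided permutation p = 0.667, where 0.33 is the smallest p that 2 libraries against 2 can give). RPS2P5 alone held 35.3% and 38.2% of the pseudogene counts in siControl and 45.5% and 44.1% in siLOC730101. Without RPS2P5, the order turned, to 0.0430% and 0.0461% of all counts in siControl and 0.0388% and 0.0426% in siLOC730101 (exact permutation p = 0.33). The order also turned without the first siControl library, where the difference was -0.00093 percentage points. Relative to the counts on pseudogenes and on the 79 ribosomal protein genes together, the pseudogenes held 1.14% and 1.21% in siControl and 1.09% and 1.02% in siLOC730101, so that the groups did not overlap (exact permutation p = 0.33). The ribosomal protein genes took 5.74% and 6.08% of all counts in siControl and 6.44% and 7.40% in siLOC730101.

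Most pseudogenes had a log2 fold change below 0 and most of their parent genes one above 0, while a single pseudogene, RPSAP58, passed the test. All 45 pseudogenes passed the filter on low counts. Of them, 31 had a log2 fold change below 0 and 14 above, with a median of -0.28, beside a median of -0.0021 over all 19349 genes tested. Of the 79 ribosomal protein genes, 77 had a log2 fold change above 0, with a median of 0.28. Of the 29 parents of the 45 pseudogenes, 28 were above 0, with a median of 0.21, the exception was RPL22 at -0.03, and RPS10 at 0.00055 changed sign with the scaling. At an adjusted p under 0.05 by edgeR's quasi-likelihood test, 1 pseudogene was lower (2.22%), where 0.0724% of all genes were called lower. No pseudogene was called higher, where 0.212% of all genes were. DESeq2 called 1 pseudogene lower and 1 higher, beside 63 lower and 234 higher over all genes. These counts changed when a single library was left out, and so did the counts over all genes (both given below). At an unadjusted p under 0.05, 11 pseudogenes (24.4%) were lower and 5 (11.1%) higher, beside 4.39% and 6.43% of all genes. Both siLOC730101 libraries lay below both siControl libraries for 23 pseudogenes (51.1%), against 20.5% of all genes, and above both for 8 (17.8%), against 21.3%. The median moved as well: it was -0.14 with 26 pseudogenes below 0 when the first siLOC730101 library was left out, and -0.42 with 33 below 0 when the second was left out.

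**Figure D1:**
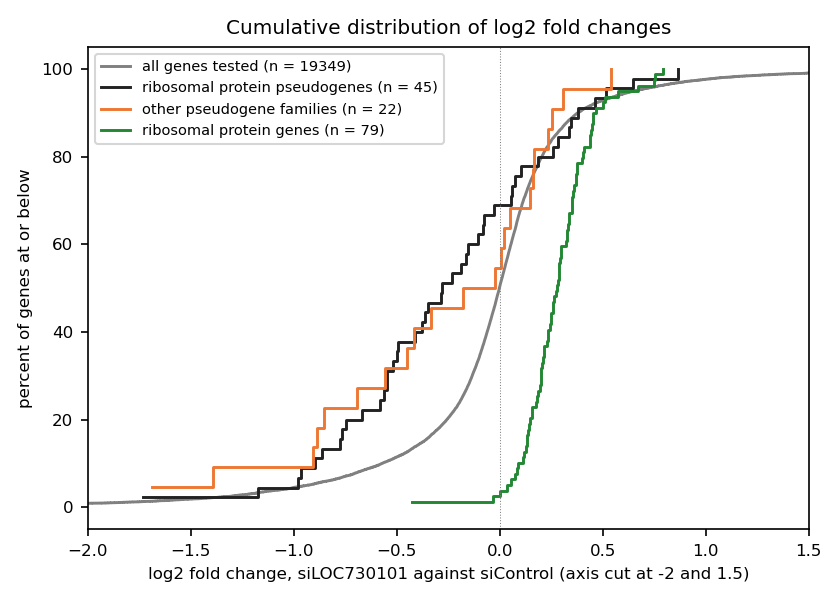
Cumulative distribution of log2 fold changes (siLOC730101 against siControl, horizontal axis) as the percent of genes at or below each value, for all 19349 genes tested, the 45 ribosomal protein pseudogenes, 22 pseudogenes of other families and the 79 ribosomal protein genes. The curve of the pseudogenes runs to the left of that of all genes below 0, with its median at -0.28, and the curve of the ribosomal protein genes runs to the right, with its median at 0.28.

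The values are also given by abundance, without a test, because the summed counts chose the members. Of the 10 pseudogenes with most counts, 4 were below 0 and 6 above, with a median of 0.16. Of the other 35, 27 were below 0 and 8 above, with a median of -0.38. Restricted to pseudogenes with at least 1000 summed counts, the median was -0.09. The 70 ribosomal protein pseudogenes under the count minimum that could still be tested had a median of -0.31, with 47 below 0 and none called. In addition, 22 abundant pseudogenes of other housekeeping genes, such as those of EEF1A1, FTH1 and HMGB1, had a median of -0.10, with 12 below 0 and 10 above. At an unadjusted p under 0.05, 7 of the 22 were lower and 0 higher, beside 4.39% and 6.43% of all genes. The groups did not overlap for 11 lower and 6 higher ones, beside 20.5% and 21.3% of all genes. Of these pseudogenes, EEF1A1P5 was called lower, at 137 ± 7.0 CPM in siControl and 75.9 ± 8.51 CPM in siLOC730101 (SD, n = 2).

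Among the small-subunit pseudogenes, 10 of 15 were below 0, with a median of -0.41. RPSAP58 had 54.5 and 53.8 normalised CPM under siControl and 36.7 and 37.5 under siLOC730101. The libraries within a group differed by less than 1 CPM, far less than the groups did. This is a decrease of 31.5%, or a log2 fold change of -0.55 ± 0.10 with an adjusted p of 0.0191. RPSAP58 kept an adjusted p under 0.05 in all 13 alternative fits, from 1.51e-05 to 0.0306. Its parent RPSA was at 1444 and 1573 CPM in siControl and 1651 and 1885 CPM in siLOC730101, higher in both knockdown libraries (log2 fold change 0.23 ± 0.08, adjusted p = 0.235). RPSAP58 counts were 3.77% and 3.42% of those of RPSA in siControl and 2.22% and 1.99% in siLOC730101.

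The other RPSA pseudogenes differed among themselves. RPSAP15 had 5.51 and 4.70 CPM in siControl and 1.996 and 2.53 CPM in siLOC730101. The groups were apart by more than their own spread, with a log2 fold change of -1.18 ± 0.28, but the adjusted p of 0.0974 missed the threshold. Its log2 fold change ran from -1.36 to -1.01 over the 13 alternative fits. RPSAP47 lay the other way, with 4.48 and 2.73 CPM in siControl and 5.79 and 5.53 CPM in siLOC730101. Its log2 fold change was 0.65 ± 0.27 (adjusted p = 0.380), and the siControl libraries were farther from each other than the first of them was from the siLOC730101 libraries. RPSAP9, described here as the remaining copy of RPSA, was at -0.28 ± 0.34 (adjusted p = 0.837). RPSA copies therefore spanned -1.18 to 0.65 on the log2 scale, while their parent was at 0.23.

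RPS2P5 was the most abundant pseudogene by count, with 232 and 282 normalised CPM in siControl and 322 and 347 CPM in siLOC730101. Both knockdown libraries were above both controls. The log2 fold change of 0.38 ± 0.09 was close to the 0.29 ± 0.09 of its parent RPS2, and its adjusted p was 0.0974. That p was 0.0031 without the second siControl library, 3.04e-07 without the first siLOC730101 library and 0.0040 without the second, and 0.0046 with DESeq2, while without the first siControl library it was 0.429. RPS2P46 had 81.3 and 91.8 CPM in siControl and 84.8 and 94.9 CPM in siLOC730101, at 0.05 ± 0.09 on the log2 scale (adjusted p = 0.903). Its groups overlapped, and its sign turned when the first siControl or the second siLOC730101 library was left out. RPS2P5 counts were 9.65% and 10.9% of those of RPS2 in siControl and 11.9% and 10.2% in siLOC730101, where the groups overlapped.

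RPS28P7 is a copy of RPS28, a small protein at the mRNA exit channel. It had 16.9 and 20.3 CPM in siControl and 13.7 and 19.02 CPM in siLOC730101, with overlapping groups (log2 fold change -0.19 ± 0.17, adjusted p = 0.756). Its sign turned when the first siLOC730101 library was left out. RPS7P1, a copy of RPS7, which besides its place in the ribosome can bind MDM2, had 11.5 and 14.5 CPM in siControl and 15.8 and 15.7 CPM in siLOC730101 (log2 fold change 0.28 ± 0.16, adjusted p = 0.554). RPS10P7 had 11.3 and 12.1 CPM in siControl and 15.1 and 12.9 CPM in siLOC730101 (log2 fold change 0.26 ± 0.16, adjusted p = 0.601). Neither of these passed the test, although both were higher in both knockdown libraries. RPS10P5 stood just inside the count minimum, mostly through siControl, with 76 and 73 counts there and 39 and 30 in siLOC730101. RPS10, the parent of the latter pair, had only 93, 101, 92 and 62 counts. The readthrough gene RPS10-NUDT3, which shares exons with RPS10, was listed at 0 counts in all libraries. The counting command gives a read that fits exons of 2 genes to neither of them, and how many RPS10 reads were set aside in this way was not tested. RPS10P7 counts came to 560% to 787% of those of RPS10, which is therefore no measure against the RPS10 mRNA.

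**Figure D2:**
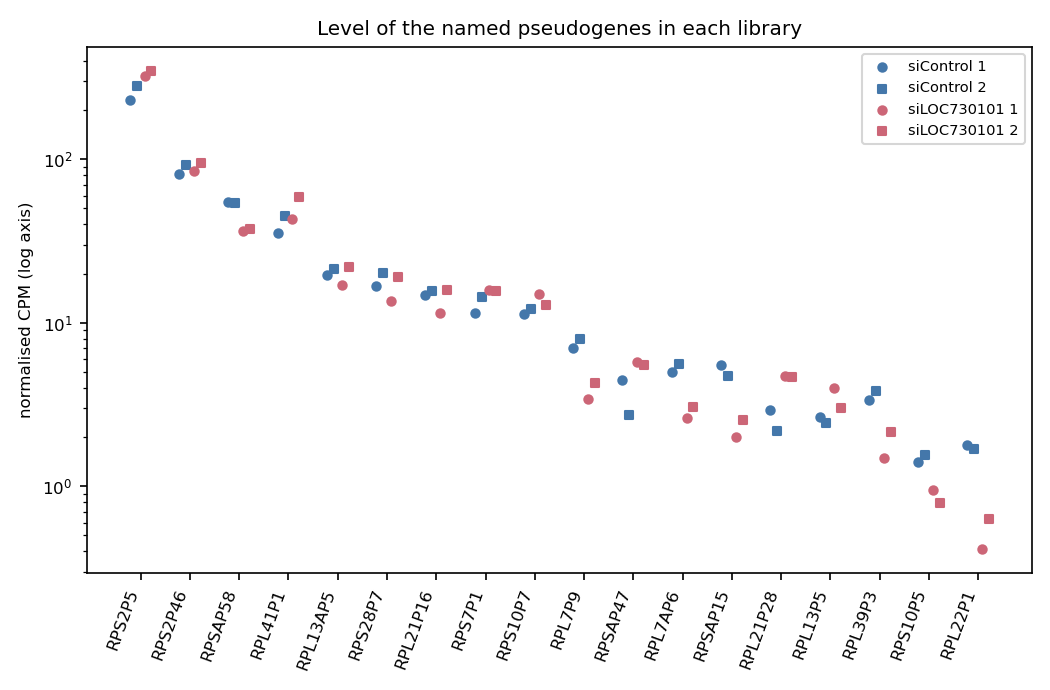
Normalised CPM (log axis) of the named pseudogenes in each of the 4 libraries, with siControl in blue, siLOC730101 in red, replicate 1 as circles and replicate 2 as squares. The levels run from 347 CPM for RPS2P5 to 0.414 CPM for RPL22P1, and the red points lie below the blue ones for RPSAP58, RPL7P9, RPL7AP6, RPSAP15, RPL39P3, RPS10P5 and RPL22P1.

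Among the large-subunit pseudogenes, 21 of 30 were below 0, with a median of -0.20, and none was called. The lowest was RPL22P1 (chromosome 3, 169483671 to 169484080, minus strand), a copy of RPL22, which has a known role in lymphocyte development. It also stood at the count minimum, with 97 and 79 counts in siControl and 17 and 24 in siLOC730101. Most of the counts that took it past the minimum thus came from siControl, which also had the larger libraries. Both knockdown libraries were far below both controls, and the log2 fold change of -1.73 ± 0.50 had an adjusted p of 0.169. Its parent RPL22 was at -0.03 ± 0.08, and its counts were 1.55% and 1.32% of those of RPL22 in siControl and 0.359% and 0.513% in siLOC730101.

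RPL39P3 is a copy of RPL39, a very short protein that lines the exit tunnel of the ribosome. It had 3.39 and 3.80 CPM in siControl and 1.48 and 2.16 CPM in siLOC730101, which gave -0.98 ± 0.32 on the log2 scale (adjusted p = 0.235), while RPL39 itself was at 0.44 ± 0.10 (adjusted p = 0.0947). The copy and its parent thus had opposite signs, although their annotated sequences are the same at every base. RPL7P9 had 7.01 and 7.99 CPM in siControl and 3.41 and 4.27 CPM in siLOC730101 (log2 fold change -0.97 ± 0.23, adjusted p = 0.0974). Its log2 fold change ran from -1.14 to -0.80 over the 13 alternative fits. The other RPL7 copy, RPL7P1, was also lower in both knockdown libraries, at -0.55 ± 0.19. RPL7AP6, a copy of RPL7A, had 4.99 and 5.598 CPM in siControl and 2.63 and 3.06 CPM in siLOC730101, at -0.90 ± 0.26 on the log2 scale (adjusted p = 0.169). For RPL39P3, RPL7P9 and RPL7AP6 the libraries of a group lay closer together than the groups did. RPL7P1 had 8.81 and 11.0 CPM in siControl and 7.20 and 6.32 CPM in siLOC730101.

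The copies of RPLP0, the protein that anchors the ribosomal stalk, all lay below 0, and they are given here as a family. RPLP0P6 had 9.86 and 10.4 CPM in siControl and 6.08 and 6.01 CPM in siLOC730101, or -0.75 ± 0.19 on the log2 scale (adjusted p = 0.116). RPLP0P9 was at -0.78 ± 0.43 and RPLP0P2 at -0.37 ± 0.26, and for both the groups did not overlap. RPS3A likewise had a pair of copies that were lower in both knockdown libraries, with RPS3AP26 at -0.58 ± 0.20 and RPS3AP6 at -0.41 ± 0.19. None of these passed the adjusted threshold.

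The highest log2 fold change belonged to RPL21P28, with 2.94 and 2.18 CPM in siControl and 4.72 and 4.64 CPM in siLOC730101. Both knockdown libraries were above both controls, and the log2 fold change of 0.87 ± 0.28 had an adjusted p of 0.222. The other RPL21 copies lay elsewhere. RPL21P16 had 14.9 and 15.7 CPM in siControl and 11.5 and 15.96 CPM in siLOC730101 (log2 fold change -0.16 ± 0.17, adjusted p = 0.812), with groups that overlapped and a sign that turned when the first siLOC730101 library was left out. RPL21P75 was at -0.35 ± 0.37, also with overlapping groups, and ran from -0.97 to 0.09 over the 13 alternative fits. The parent RPL21 was at 0.21 ± 0.08. The sequences printed above for this family differ from RPL21 at 1 base or none. Over their whole annotated length, RPL21P16, RPL21P75 and RPL21P28 differed from the parent at 0, 1 and 3 bases. The log2 fold changes of the copies ran from -0.35 to 0.87.

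RPL41P1, a copy of the gene for the smallest ribosomal protein, had 35.6 and 44.8 CPM in siControl and 42.9 and 59.1 CPM in siLOC730101. The groups overlapped (log2 fold change 0.34 ± 0.14, adjusted p = 0.364). Over the 13 alternative fits its log2 fold change ran from 0.09 to 0.57. For RPL13AP5, a copy of RPL13A, the groups overlapped too, with 19.7 and 21.3 CPM in siControl and 16.9 and 21.8 CPM in siLOC730101 (log2 fold change -0.08 ± 0.14, adjusted p = 0.903). RPL13P5, at 2.66 and 2.44 CPM in siControl and 4.02 and 3.00 CPM in siLOC730101, was at 0.46 ± 0.30 on the log2 scale (adjusted p = 0.628). It is the most distant copy by sequence, with an identity of 80.4% to RPL13.

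**Figure D3:**
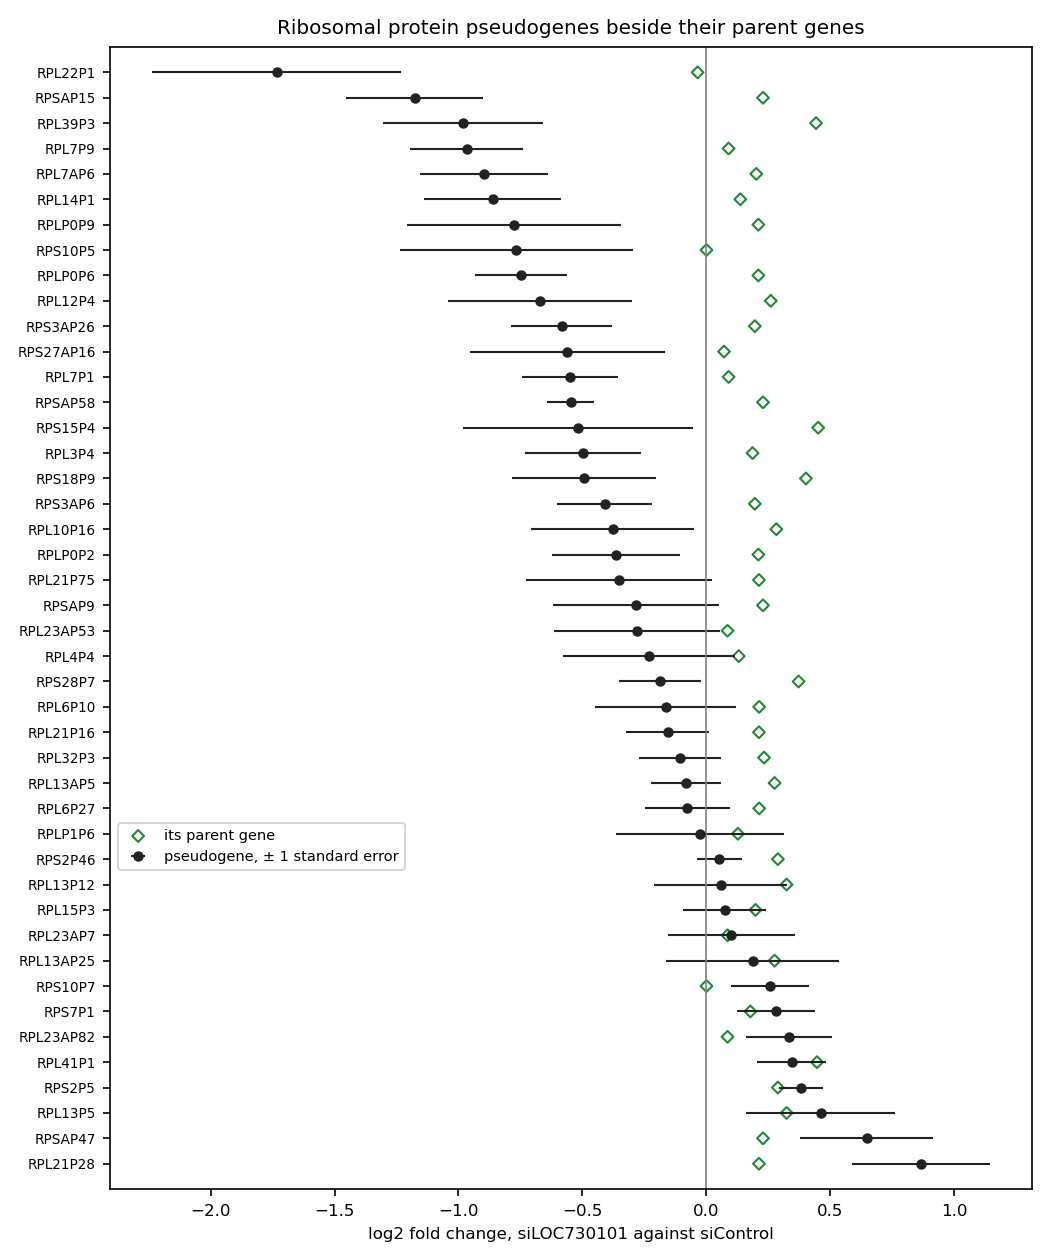
Log2 fold change (siLOC730101 against siControl) of 44 of the 45 pseudogenes with 1 standard error (black points and bars), sorted from the lowest to the highest, and of its parent gene (green diamonds). The pseudogenes run from -1.73 for RPL22P1 to 0.87 for RPL21P28, while the parents shown lie between -0.03 and 0.45.

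Each pseudogene was also set beside its parent within the same library. In 36 of 45 cases the pseudogene had the lower log2 fold change, and the median difference was -0.51. The ratio of pseudogene to parent counts was lower in both siLOC730101 libraries than in both siControl libraries for 30 pseudogenes, higher for 4 and overlapping for 11. This ratio has no share over all genes to stand beside it. These counts include RPS10P5 among the lower and RPS10P7 among the higher, although the RPS10 count is no measure of the RPS10 mRNA. Over all 45, the median ratio was 0.551% and 0.561% in the siControl libraries and 0.359% and 0.436% in the siLOC730101 libraries. The ratio holds the parent's own difference, which was above 0 for 28 of 29 parents.

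**Figure D4:**
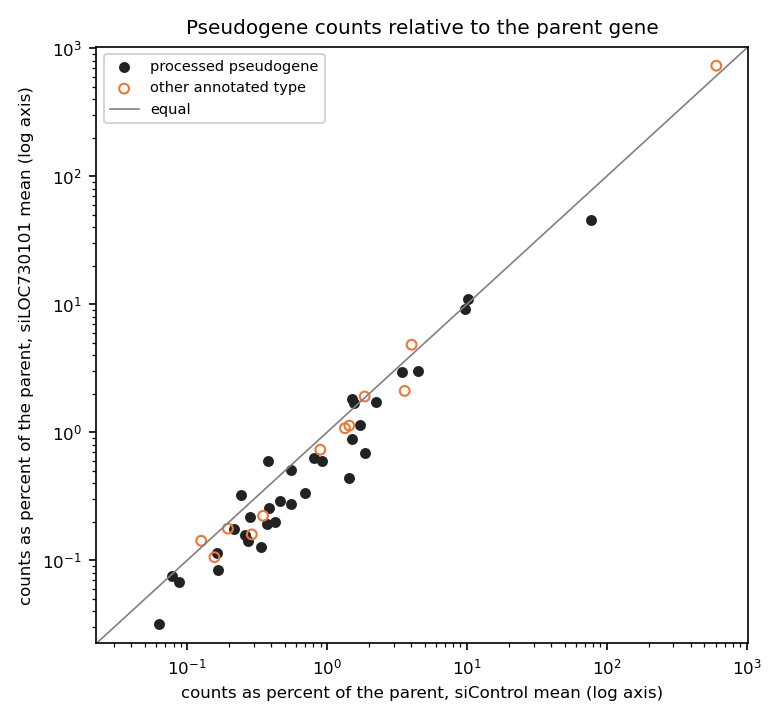
Counts of each pseudogene as a percent of the counts of its parent gene, with the siControl mean on the horizontal axis and the siLOC730101 mean on the vertical axis (both log axes), for 33 processed pseudogenes (filled) and 12 genes of other annotated types (open). Most points lie below the line of equality, and RPS10P7 stands at the upper right, between 560% and 787% of RPS10.

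All 45 pseudogenes had a transcript in gencode release 44, 44 under the same name and RPSAP58 as RPSA2. Of these, 33 were annotated as processed pseudogenes, and 12 as other types, mostly transcribed pseudogenes. The median log2 fold change was -0.35 for the 33, with 23 below 0, and -0.09 for the 12, with 8 below 0. The identity of the aligned bases to the parent transcript ranged from 80.4% to 100%, with a median of 98.8%, and 21 pseudogenes reached 99%. Of these 21, 16 were below 0 (median -0.38), and of the other 24, 15 were below 0 (median -0.20). Across the 45 pseudogenes, Pearson's r between identity and log2 fold change was -0.30 and Spearman's rho was -0.26, given as a description because the points share libraries and, within a family, sequence. Within the 33 processed pseudogenes r and rho were both -0.09, and within the 12 others they were -0.68 and -0.61.

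**Figure D5:**
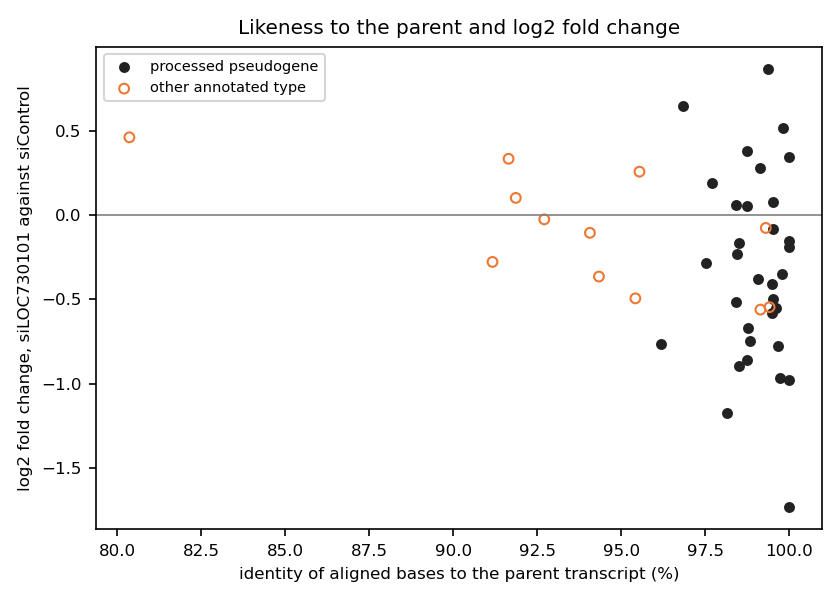
Identity of the aligned bases to the parent transcript (percent, horizontal axis) against log2 fold change (siLOC730101 against siControl, vertical axis), for 33 processed pseudogenes (filled) and 12 genes of other annotated types (open). Values below and above 0 both occur from 91.2% identity upward, and the 1 point under that, RPL13P5 at 80.4%, lies at 0.46.

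The stretches of 50 bases that occur in no transcript of another gene were counted for each pseudogene. Their share had a median of 30.8% and ranged from 0% to 99.6%. For stretches of 150 bases the median was 84.3%, without RPL41P1, which is shorter than that. RPL39P3, RPS28P7, RPL21P16 and RPL41P1 were the same as their parents at every annotated base and had no such stretch, nor had RPL23AP82, although its identity to RPL23A was only 91.6%. These genes held 504, 3146, 2614, 8024 and 1633 counts. For RPL23AP82 the sequence examined was 1 transcript of 469 bases, while its counts came from exons of 5709 bases in total. Other genes with several exons were also examined in part only, such as RPSAP58, with 2140 bases examined and exons of 12195 bases. For the copies identical to their parents, reads that fall within the annotated sequence match the parent as well, and only reads that run past its ends could tell the copies apart. The sources used here name different aligners, and those differ in how they report reads with several equal matches. Whether such reads were counted was not tested. The share of unique 50-base stretches had Pearson's r of 0.06 and Spearman's rho of -0.01 with the log2 fold change across the 45 pseudogenes.

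Of the 45 pseudogenes, 25 overlapped the span of another gene, 12 of them on the same strand and 9 with overlapping exons, and 20 overlapped none. The median log2 fold change of the 20 was -0.32. The counts were made without a strand option, so reads from a host gene and from a pseudogene inside it were not separated by strand. RPL22P1 lies within MECOM, a zinc finger transcription factor gene, which summed to 565 counts and was at -0.58 (adjusted p = 0.523), against -1.73 for RPL22P1. RPS2P5 at 0.38 lies opposite to TAOK3, a kinase gene, at -0.12. RPL21P28 at 0.87 lies opposite to DTL, a gene of the ubiquitin system, at -0.41. RPS3AP26 at -0.58 lies within BAIAP2L1 at 0.23. RPL7AP6 at -0.90 lies opposite to SMOC1 at -0.69, RPL7P1 at -0.55 opposite to CSF1R at -0.36, and RPL39P3 at -0.98 within OOEP at -0.14. Over the 23 pairs in which the other gene could be tested, with 19 pseudogenes among them, the signs were the same in 13 and opposite in 10, and no host gene passed the adjusted threshold. The part of host gene reads in these values was not tested.

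Other genes of the pathway were examined from lists. The share of all genes at an unadjusted p under 0.05, 6.43% higher and 4.39% lower, stands as the background of each list. Of the 79 ribosomal protein genes, 9 were called higher and none lower, and at an unadjusted p under 0.05 the counts were 59 and 0. The number called higher rose whichever library was left out, as it did over all genes. The called genes included RPS21 (0.79 ± 0.10), RPL38 (0.75 ± 0.09), RPS29 (0.75 ± 0.09), RPS27 (0.67 ± 0.09) and RPS13 (0.51 ± 0.08). Of 7 ribosomal protein paralogs tested, 6 were above 0 and none was called. Of 46 ribosome biogenesis genes, 36 were above 0, with a median of 0.08, and none was called, with 4 higher and 1 lower at an unadjusted p under 0.05. Of 18 other genes of the 5′ terminal oligopyrimidine (TOP) class and their binding proteins, 10 were above 0, with a median of 0.04, and none was called, with 2 higher and 0 lower at an unadjusted p under 0.05.

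The pseudogenes nearest to the count minimum were RPL22P1 (217 counts) and RPS10P5 (218 counts) on the inside and RPL31P46 (198 counts) and RPL26P19 (186 counts) on the outside. Their log2 fold changes were -1.73, -0.77, -0.43 and 0.21.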

How the data were processed

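Polyadenylated RNA of 4 DaroR libraries was measured. The authors trimmed, aligned and counted the reads and deposited raw counts per gene, made with featureCounts 2.0.1 on exons of gencode release 41 (hg38, per the file headers), with no option for read pairs, strand, multiple matches or overlapping genes. The paper names STAR with hg19, and the submitters' processing notes name BWA with hg38. The alignment files of the groups were named differently, so a difference in alignment between the groups cannot be told apart from the knockdown.

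Counts were fitted in R 4.3.3 with edgeR 4.0.16 (filterByExpr, TMM scaling, quasi-likelihood test with the condition as the only term, legacy method) and p-values were adjusted by Benjamini-Hochberg over 19349 genes. Log2 fold changes are siLOC730101 against siControl, and normalised CPM are counts scaled by the TMM-adjusted library total. Standard errors were derived as the absolute log2 fold change divided by the square root of the quasi-likelihood F statistic. Library totals ran from 39213498 to 53368158 counts, and the biological coefficient of variation was 0.147. Replicates differed by more than sampling noise (chi-square per degree of freedom 10.6 and 13.0). The alternatives were other scalings, a laxer filter (at least 1 count in all, summed over the libraries), DESeq2 1.42.0 and other quasi-likelihood settings. They also included the replicate number as a block, halved counts, each library left out, other count minimums and members outside other genes. The fit was tested on simulated data. Members, lists and tests were chosen with earlier results of these data known.

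Pseudogene transcripts were aligned to transcripts of the parent with Biopython 1.88 in Python 3.11.15. The identity is that to the protein-coding transcript of the parent that aligned best. The printed stretches were aligned to the canonical transcript of the parent. Sequences come from gencode release 44 on GRCh37, matched by name, since no genome of the files' build was used, and positions come from the count table. Named pseudogenes are those called, the 10 with most counts, the 5 with the highest and the 5 with the lowest log2 fold change and a mean of at least 50 counts, those nearest to the minimum of 200 counts, and their parents. Other members were named as copies of a parent after their values were seen. The results of 1 gene are not reported here, and it stayed in the counts and medians.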

Additional observations from a re-analysis of the deposited data

How the results depend on the processing

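RPSAP58 was called lower in all 13 alternative fits, and 35 of the 45 pseudogenes kept their sign in all of them. With 2 libraries in a group, the number of calls moved with most settings, halved counts included, and the cause was not tested. With a library left out, the lone library of that group is assumed to vary like the other group. The pseudogenes called higher were 0 in the reported fit, 1 with at least 1 count in all, 1 with DESeq2, 1 with halved counts and 0 to 3 with a library left out. Those called lower were 1, 4 with at least 1 count in all, 0 among members that overlap no other gene (which leaves out RPSAP58) and 1 to 3 with a library left out. The ribosomal protein genes called higher were 9, then 44 with at least 1 count in all, 30 with DESeq2, 14 with the legacy method off, 16 with halved counts and 12 to 70 with a library left out. Over all genes, 41 were called higher and 14 lower, against 324 and 113 with at least 1 count in all, 234 and 63 with DESeq2, 87 and 24 with the legacy method off, 113 and 35 with halved counts, 35 lower with the library size only, and 77 to 923 higher and 26 to 272 lower with a library left out.

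The deviations of same-numbered libraries had a correlation of -0.0009 across genes, which cannot exclude a pairing that shows in only part of the genes. In both groups the second library had the larger share of counts on ribosomal protein genes. It was 5.74% and 6.08% in siControl and 6.44% and 7.40% in siLOC730101. Whether the replicate numbers pair the samples is therefore not settled here. With the replicate block, 485 genes were called higher and 167 lower, among them 3 and 6 pseudogenes, and 56 ribosomal protein genes were called higher.

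The median of the pseudogenes was -0.28 in the reported fit, -0.094 with at least 1000 counts, and -0.42 to -0.14 with a library left out. The difference in their share of counts (0.0031 percentage points) turned to -0.122 relative to pseudogenes and ribosomal protein genes together and to -0.0038 without RPS2P5, a choice made after seeing the data, and ran from -0.00093 to 0.0072 with a library left out. Among named genes, the sign turned in part of the fits with a library left out, which ranged from -0.0322 to 0.146 for RPS2P46, -0.277 to 0.0987 for RPL13AP5, -0.447 to 0.0428 for RPS28P7, -0.416 to 0.0735 for RPL21P16, -1.16 to 0.0445 for RPL31P46, -0.105 to 0.0418 for RPL22 and -0.237 to 0.206 for RPS10. Over all 13 fits, RPL21P75 ranged from -0.97 to 0.09 with 1 change of sign and RPLP1P6 from -0.39 to 0.45 with 3. RPS10, at 0.00055 in the reported fit, was also at -0.0025 with DESeq2 size factors, -0.0283 with upper-quartile factors, -0.0331 with the library size only, -0.0037 with at least 1 count in all and -0.0060 with the replicate block.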
